A study of Mus musculus with 45 samples.

Results

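The rows described here were 150 of the 23999 rows of an RNA-seq count table whose level dropped on the first day of hepatic stellate cell (HSC) culture and was back near its starting level on day 12. They were chosen by the counts themselves. Each count was scaled to its library total as CPM, a standard unit for library-scaled counts, and the level of a group was taken as log2(mean CPM + 1). A row had to reach a level of 3 at 2hrs, and its level at 12days had to lie within 0.5 of its level at 2hrs. Of 9992 rows at that level, 3434 also met the limit on the ends. The 150 rows with the largest drop were kept, where the drop is the smaller of the fall from 2hrs to 1day and the rise from 1day to 12days. The levels at 2hrs, 1day and 12days therefore describe the choice and were not tested.

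HSCs were isolated from livers of male mice, labelled C57BL6/J and named C57BL/6JBomTac in the methods, by sorting on the autofluorescence of stored retinoid. For the culture series (IVT, 15 libraries), sorted cells of healthy mice were held for 2 hrs in suspension or grown on plastic in serum-containing DMEM for 1, 4, 8 or 12 days, with 3 libraries per time. The diet series (WD, 16 libraries) held chow-fed mice and mice on Western diet with fructose in the drinking water for 12, 16 or 24 weeks, with 4 libraries per group and all mice at the same age at the end. The third series (CCl4, 14 libraries) held 4 vehicle libraries and 3, 4 and 3 libraries after 1, 4 and 8 weeks of repeated gavage with carbon tetrachloride (CCl4), a solvent toxic to hepatocytes. The vehicle mice were given corn oil for 8 weeks and fasted likewise. Comparisons of 1 and 4 weeks with vehicle therefore also differ in the length of dosing and fasting, whose part was not tested. The cultures were described as technical triplicates in one place and as biological replicates in another. Where the wells came from a single preparation, tests in culture measure the spread between wells. Freshly sorted cells of the mice were lysed directly, whereas the control cells of the culture series had spent their hours in medium and cultured cells were lysed in another reagent. Differences in level between the tables may hold this handling, whose part in them was not tested.

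In a healthy liver, quiescent HSCs store vitamin A in lipid droplets. After injury they lose these droplets, proliferate and become contractile myofibroblasts that deposit collagen-rich matrix. The same change occurs when the cells attach to stiff plastic in serum, where the transfer from tissue to dish itself also changes many transcripts. In bulk libraries, fewer cells of a type and less RNA per cell cannot be told apart.

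No gene is named, because the counts did not follow the identifiers in the tables. The count listed at beta-actin, which is abundant in cultured cells, was 0 to 2 in the 15 culture libraries. Of 1105 olfactory receptor identifiers, 33.6% had a mean count below 1, against 32.4% of all identifiers. The cell type could therefore not be checked against its markers, and no role, position or sequence is given. Identifiers and their order were shared by the 3 tables, and a line was taken as the same row in each. Over all rows, the Spearman correlation of levels between 2hrs and chow was 0.933, and over the 150 rows it was 0.845. Lines are numbered from 1 at the first line of data.

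Library totals were 3556607 to 7568415 counts for IVT, 2425443 to 6404105 for WD and 2318311 to 7576527 for CCl4. A count of 3, taken as the floor of a library, corresponded to 0.396 to 0.844 CPM in IVT, to 0.468 to 1.24 CPM in WD and to 0.396 to 1.29 CPM in CCl4. This floor covers counting error only. On day 1, 15 of the 150 rows had a mean of under 10 counts, so the depth of their drop is imprecise. No pair of the 150 rows had the same counts in all 45 libraries.

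The drop was large in many of the rows. Its median was 1.90 on the log2 scale, which is 3.73-fold, and 63 rows dropped by 2 or more and 14 by 3 or more. Among the 3434 rows within the same limits, 199 were lower at 1day than at both ends by at least 1, and 184 were higher than both ends by as much. The median level of the 150 rows fell from 5.35 at 2hrs to 3.27 at 1day and stood at 4.96 at 4days, 5.24 at 8days and 5.53 at 12days. The other 3284 rows within the limits had median levels of 6.04 at 2hrs and 6.37 at 1day. The libraries of one time lay close together. The median level of the 150 rows was 3.28, 3.29 and 3.36 in the 3 libraries of day 1, ordered by value, and between 4.94 and 4.98 in those of day 4. When the rows were chosen with one letter of each time left out, 123 to 130 of the 150 were chosen again. In the libraries of the left-out letter the median drop was 1.70, 1.79 and 1.83 for A, B and C, and 149 to 150 of the rows so chosen were lower at 1day than at both ends. These choices share most of their libraries, and the left-out letter may be a well of the same preparation. The values therefore describe the spread between libraries and are no separate support for the drop.

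**Figure D1:**
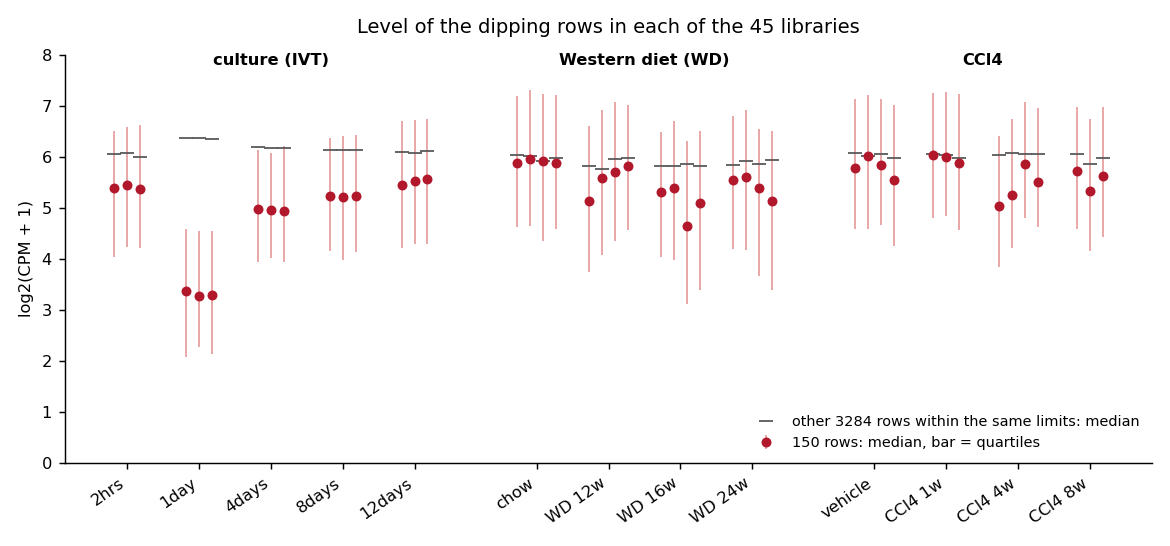
Level, as log2(CPM + 1), of the 150 rows in each of the 45 libraries, with points for the median and bars for the quartiles over rows, and grey dashes for the median of the other 3284 rows within the same limits. The 3 libraries of day 1 sit between 3.28 and 3.36, below every other library, by the choice of the rows.

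Line 7457, the last row chosen, had a drop of 1.238, and line 9780, the first row left out, had a drop of 1.237. Line 7457 was at 78.1, 96.0 and 96.2 CPM at 2hrs, at 32.4, 25.9 and 28.5 CPM at 1day and at 66.8, 73.2 and 68.9 CPM at 12days. Line 9780 was at 173, 209 and 209 CPM at 2hrs, at 79.5, 81.7 and 87.9 CPM at 1day and at 208, 221 and 205 CPM at 12days. In both rows the libraries of day 1 lay below all those of the ends, and the drops of the 2 rows were nearly equal.

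The deepest drop was that of line 4398. Its values were 58.1, 55.4 and 65.8 CPM at 2hrs and 2.59, 4.39 and 2.72 CPM at 1day, which is a 14.3-fold drop. They were 29.9, 33.4 and 28.7 CPM at 4days, 50.3, 49.1 and 53.2 CPM at 8days and 62.6, 59.5 and 56.3 CPM at 12days. This row climbed at each step, and no library of one day overlapped with those of the day before.

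Line 20735 was the most abundant of the 5 deepest rows, with 798, 931 and 790 CPM at 2hrs and 47.9, 53.5 and 52.8 CPM at 1day. By 4days it was at 897, 963 and 968 CPM, and at 12days it was at 706, 682 and 674 CPM. It was therefore back at its starting level by day 4, and its 12days libraries lay below those of day 4 and day 8.

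Line 14065 came back late. It was at 30.4, 32.7 and 25.6 CPM at 2hrs and at 1.83, 0.850 and 1.36 CPM at 1day, and it was still at 2.04, 3.33 and 3.08 CPM at 4days and at 4.61, 4.80 and 5.15 CPM at 8days. At 12days it reached 28.8, 23.5 and 28.1 CPM. Most of its return fell between day 8 and day 12.

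Line 6547 fell from 204, 161 and 193 CPM at 2hrs to 15.8, 16.3 and 12.1 CPM at 1day, and passed 85.9, 81.9 and 79.0 CPM at 4days on its way to 176, 182 and 183 CPM at 12days. Line 8489 fell from 34.2, 24.7 and 46.1 CPM to 2.28, 1.98 and 2.56 CPM. It stayed level at 18.2, 16.2 and 18.2 CPM at 4days and 16.7, 14.4 and 18.1 CPM at 8days, and was at 49.4, 44.7 and 53.8 CPM at 12days. The 5 deepest rows thus shared the drop but not the course of the return.

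**Figure D2:**
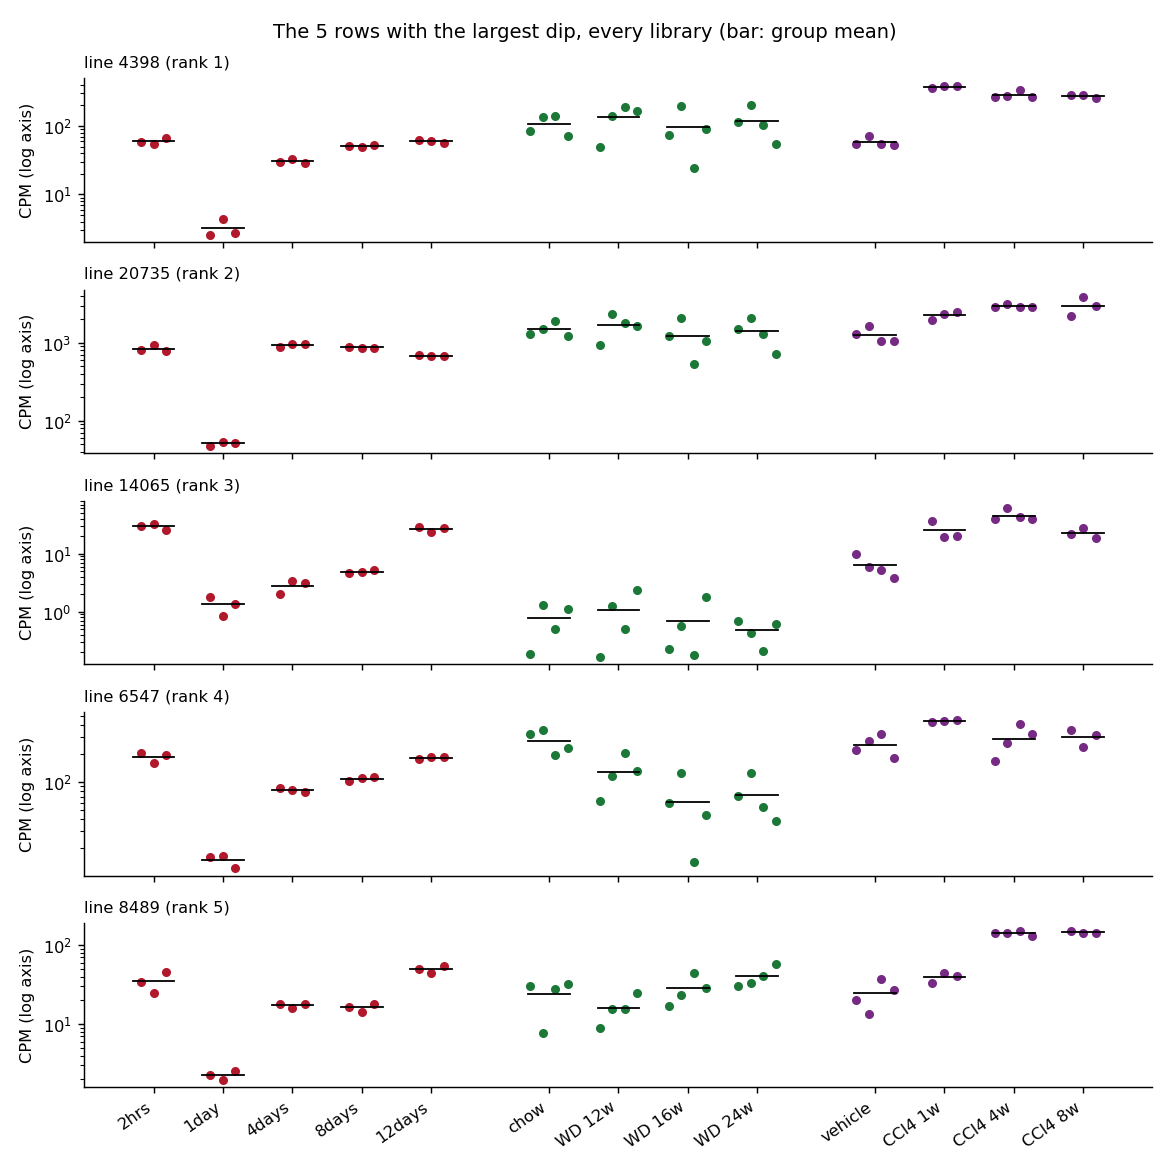
CPM on a logarithmic axis of the 5 rows with the largest drop in every library, with a bar at each group mean. In culture all 5 rows are lowest in the 3 libraries of day 1. Lines 4398, 20735, 14065 and 8489 are higher in the 3 libraries of CCl4 8w than in the 4 vehicle libraries, whereas line 6547 overlaps.

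Recovery over days 4 and 8 was expressed as the part of the drop that was regained, with 0% at the level of 1day and 100% at the mean of the levels at 2hrs and 12days. At 4days the median recovery was 75.6%, with quartiles of 59.6% and 91.0%, and at 8days it was 89.2%, with quartiles of 77.7% and 100.4%. Computed in each library, the median was 74.1% to 76.1% at 4days and 88.8% to 89.9% at 8days, so the libraries of the 2 days did not overlap. Since the ends of the scale were fixed by the choice of rows, only the course between them is described.

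At 4days 40 rows had regained 90% or more, 87 rows had regained 50% to under 90% and 23 rows had regained less than 50%. At 8days these classes held 73, 73 and 4 rows. In all, 148 rows at 4days and 150 rows at 8days were above their level of 1day. At 4days 114 rows were below both ends and 20 were above both, and at 8days these were 98 and 29. A rise at every step from 1day to 12days was found in 84 rows, and 39 rows were higher at 4days than at 8days.

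**Figure D3:**
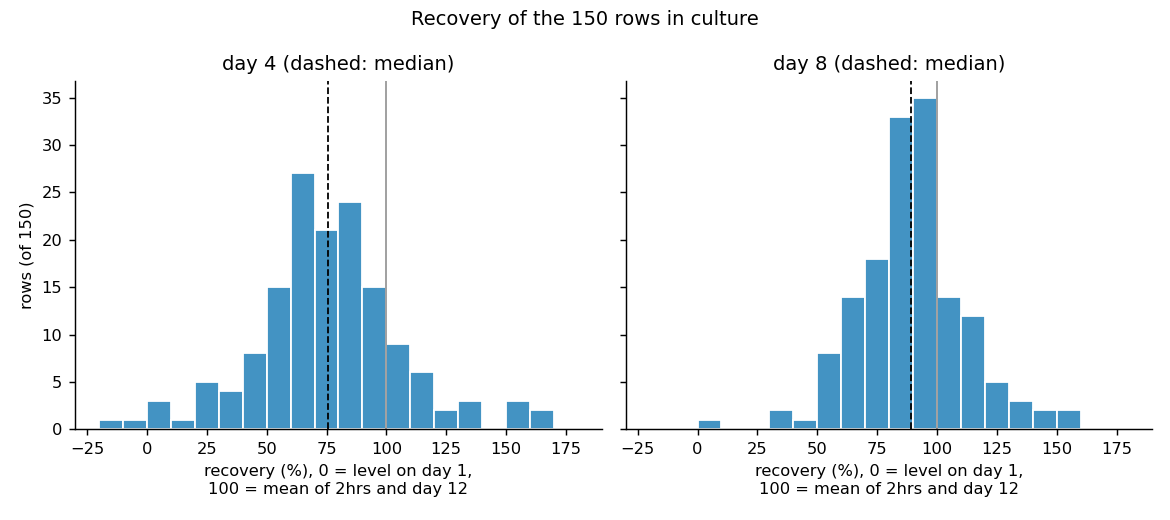
Number of rows by recovery, in steps of 10 percentage points, at day 4 and day 8, where 0% is the level on day 1 and 100% the mean of 2hrs and day 12. The dashed line at the median moves from 75.6% at day 4 to 89.2% at day 8, and both days have rows on each side of 100%.

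The 3 rows with the highest recovery at 4days went above their starting level. Line 2117 was at 18.6, 21.6 and 23.1 CPM at 2hrs, at 6.54, 8.78 and 8.75 CPM at 1day and at 46.4, 43.4 and 40.8 CPM at 4days, a recovery of 167.6%. Line 22447 was at 8.81, 11.9 and 11 CPM at 2hrs, at 1.52, 1.27 and 1.81 CPM at 1day and at 21.8, 22.7 and 21.9 CPM at 4days. Line 6473 went from 33.2, 41.5 and 38.8 CPM at 2hrs through 7.76, 9.34 and 10.6 CPM at 1day to 66.4, 60.0 and 75.5 CPM at 4days. In these rows the low point of day 1 was followed by a peak, which line 6473 held at 8days with 61.9, 65.8 and 64.1 CPM.

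The 3 rows with the lowest recovery at 4days had not left the low level of day 1. Line 8089 was at 2.28, 3.26 and 2.11 CPM at 1day, at 1.77, 2.75 and 2.05 CPM at 4days and at 2.83, 2.25 and 2.64 CPM at 8days, against 9.14, 6.84 and 6.63 CPM at 12days. Line 21357 was at 33.0, 29.0 and 31.5 CPM at 1day and at 31.8, 27.5 and 28.0 CPM at 4days, and reached 80.6, 80.2 and 75.6 CPM at 8days. Line 18597 was at 0.913, 0.850 and 0.754 CPM at 1day, which were 6, 6 and 5 counts, at 1.09, 1.01 and 0.440 CPM at 4days and at 3.72, 4.05 and 3.96 CPM at 8days. For these rows the drop lasted past day 4. At 8days lines 8089 and 18597 were still below all their libraries of 2hrs and 12days.

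The step from 4days to 8days was tested. The libraries of these days did not choose the rows, but the rule required each row to rise from its low point to the end of the culture. At 4days 114 rows were still below both ends, so an excess of rises over all rows could follow from the choice. The shares below therefore describe the course of the return. The fit held all groups of the series, and thus also the libraries that chose the rows. A row was called at a false discovery rate (FDR) of at most 0.05 in edgeR's quasi-likelihood test, fitted on the whole table, with a mean log2CPM above 2. All 150 rows were tested and 142 were above that level. Of the 150, 67 were called higher at 8days, against 17.7% of all rows above that level, and 10 were called lower, against 15.8%. The 142 rows above the level were thus higher in 47.2% and lower in 7.04% of cases. The median log2 fold change of the 150 rows was 0.27, against -0.01 over all rows above the level. Of the 67 rows, 16 were changed by at least 2-fold, so most of the rises in this step were small.

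The largest rises from 4days to 8days were in rows that were still low at 4days. Line 16866 rose from 2.31, 3.47 and 2.35 CPM at 4days to 17.6, 17 and 19.2 CPM at 8days (log2 fold change 2.72, SE 0.34, FDR 8.2e-06). Line 703 rose from 6.40, 6.66 and 4.69 CPM to 33.5, 36.3 and 34.0 CPM (2.55, SE 0.17, FDR 5.8e-09). Line 18982 rose from 2.45, 3.04 and 2.35 CPM to 12.8, 14.6 and 16.0 CPM (2.47, SE 0.23, FDR 2.7e-07). In each of these rows the 8days libraries lay above both ends of the culture.

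Other rows fell in that step. Line 22447 fell from 21.8, 22.7 and 21.9 CPM to 3.72, 6.46 and 4.89 CPM (log2 fold change -2.13, SE 0.17, FDR 4.0e-08). Line 2776 fell from 22.0, 22.3 and 21.1 CPM to 7.59, 6.91 and 10.7 CPM (-1.36, SE 0.16, FDR 3.7e-06). Line 15530 fell from 70.2, 66.8 and 67.5 CPM to 36.9, 35.7 and 36.9 CPM (-0.90, SE 0.23, FDR 0.0059). None of these 3 rows overlapped between the 2 days. At 4days lines 22447 and 2776 had been above all their 2hrs libraries, whereas line 15530 had been at 50.5, 108 and 40.8 CPM at 2hrs.

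The 150 rows were somewhat higher in the control mice than in the 2hrs cells. Their median level was 5.89 in chow and 5.81 in vehicle. The median over rows of the difference from 2hrs was 0.45 in chow and 0.32 in vehicle, against -0.08 and -0.02 in the other 3284 rows. In chow 98 rows, and in vehicle 100 rows, lay within 1 of their 2hrs level, so that the remaining rows differed by 2-fold or more. For 125 rows every one of the 8 mouse groups had a mean above the level of 1day, and for 25 rows at least 1 group did not. These levels are set across tables that were made from cells handled in different ways.

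Libraries within the treated groups stood apart from each other. The median level of the 150 rows was 5.87 to 5.96 in the 4 chow libraries, and in WD 16w it was 5.32, 5.39, 4.65 and 5.09 for A to D. In WD 24w it was 5.55, 5.61, 5.40 and 5.13, and in WD 12w it was 5.13, 5.58, 5.70 and 5.82. In CCl4 4w it was 5.04, 5.26, 5.85 and 5.50, in CCl4 1w it was 5.88 to 6.03, in CCl4 8w it was 5.33 to 5.71, and in vehicle it was 5.54 to 6.01. The 5 lowest libraries were thus WD 16w C and D, CCl4 4w A, WD 12w A and WD 24w D. Their totals were between 3627173 and 6404105 counts, and the range of the calls with 1 library left out is given below.

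Under Western diet more of the 150 rows were called lower than higher at 16 and 24 weeks, while at 12 weeks the calls in both directions were few. At 12 weeks 10 rows were called higher, against 18.5% of all rows above the level, and 13 lower, against 7.54%, out of 138 rows above the level and 147 tested. At 16 weeks 14 rows were called higher, against 28.4%, and 73 lower, against 27.3%, out of 139 rows above the level. At 24 weeks 14 rows were called higher, against 24.4%, and 46 lower, against 18.7%, out of 138 rows above the level. At 16 weeks the lower calls took 48.7% of the 150 rows, and 30.2% of the other 3284 rows within the limits. These shares were 30.7% and 20.7% at 24 weeks, and 8.67% and 9.59% at 12 weeks. The higher calls took 6.67%, 9.33% and 9.33% of the 150 rows at 12, 16 and 24 weeks. In those other rows they took 8.40%, 16.5% and 11.9%, nearer to the 150 rows than the shares of all rows above the level. The 3 comparisons share the chow libraries. The lowest of the 4 group means was that of WD 16w in 99 rows, against 38.2% of the other rows within the limits, and the highest was that of chow in 94 rows, against 48.7% of them.

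The median log2 fold change of the 150 rows was -0.27 at 12 weeks, -0.80 at 16 weeks and -0.51 at 24 weeks, against -0.03, -0.01 and 0.01 over all rows above the level. With 1 library of the compared groups left out, the lower calls were between 10 and 13 at 12 weeks, between 61 and 74 at 16 weeks and between 26 and 57 at 24 weeks. The count of 24 weeks was 26 without WD 24w C and 28 without WD 24w D, and the higher calls of that week fell to 9 without WD 24w C or without chow B. At 12 weeks a fit of the compared groups alone called 37 rows lower. For such other fits, here and below, the share of all rows called is not given. A change in their counts can therefore not be told from a change in the calls over all rows.

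Of the rows that fell at 24 weeks, line 19412 fell the furthest. It was at 239, 192, 252 and 308 CPM in chow and at 83.8, 84.0, 35.7 and 21.5 CPM in WD 24w (log2 fold change -2.14, SE 0.58, FDR 0.0077). At 16 weeks it was at 72.9, 50, 8.48 and 25.2 CPM. No treated library reached the lowest chow library, and C and D were below A and B in both weeks.

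Line 6473, one of the rows that peaked on day 4, was at 113, 157, 93.5 and 84.4 CPM in chow and at 34.6, 46.5, 17.9 and 4.68 CPM in WD 24w (log2 fold change -2.11, SE 0.64, FDR 0.015). Line 9900 was at 30.7, 29.2, 19.7 and 22.6 CPM in chow and at 7.20, 11, 5.91 and 2.50 CPM in WD 24w (-1.95, SE 0.50, FDR 0.0055). The groups did not overlap in either row, and the treated libraries spread over a wider fold range than the chow libraries.

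Line 12340 rose the most at 24 weeks. It was at 3.89, 7.46, 8.17 and 7.65 CPM in chow, at 12.9, 16.1, 13.6 and 20.2 CPM in WD 12w, at 57.3, 40.1, 99.2 and 99.1 CPM in WD 16w and at 39.2, 40.7, 116 and 95.3 CPM in WD 24w (log2 fold change at 24 weeks 3.40, SE 0.40, FDR 7.9e-06). All 12 treated libraries of this row were above the 4 chow libraries.

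Line 14222 was at 16.1, 23.5, 14 and 23.0 CPM in chow and at 49.7, 51.3, 147 and 192 CPM in WD 24w (log2 fold change 2.49, SE 0.44, FDR 0.00038). Line 22149 was at 13.5, 12.5, 8.68 and 22.6 CPM in chow and at 30.9, 25.2, 82.3 and 123 CPM in WD 24w (2.15, SE 0.49, FDR 0.0025). In these rising rows C and D were the high libraries, as they were the low libraries in the falling rows. The median level of the 46 rows called lower at 24 weeks was 5.47, 5.62, 4.69 and 4.36 in WD 24w A to D, and that of the 14 rows called higher was 6.47, 6.22, 7.04 and 6.99. The authors propose that RNA of disrupted hepatocytes may be in the WD libraries, and traces of macrophage RNA in the libraries from mice. The part of such RNA in these changes was not tested.

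Under CCl4 more of the rows were called higher than lower at 1 week, and more lower than higher at 4 and 8 weeks. As under diet, the lower calls were most numerous at the middle time. After 1 week 32 rows were called higher, against 13.8% of all rows above the level, and 13 lower, against 11.4%, out of 145 rows above the level and 149 tested. After 4 weeks 28 rows were called higher, against 24.0%, and 68 lower, against 26.3%, out of 144. After 8 weeks 23 rows were called higher, against 21.7%, and 56 lower, against 27.1%, out of 145. These comparisons share the vehicle libraries, from mice given corn oil for 8 weeks. The median log2 fold change of the 150 rows was 0.09 at 1 week, -0.43 at 4 weeks and -0.23 at 8 weeks, against -0.03, -0.03 and -0.07 over all rows above the level. In the other 3284 rows within the limits it was -0.08, -0.14 and -0.21. The lower calls took 45.3% of the 150 rows at 4 weeks and 37.3% at 8 weeks, against 28.7% and 32.1% of those other rows. At 8 weeks the fall was thus close to that of rows within the same limits.

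Between 1 week and 8 weeks of CCl4, 19 rows were called higher, against 22.5%, and 65 lower, against 24.1%, and the median log2 fold change was -0.50, against -0.01 over all rows above the level. Of the 4 group means, the lowest was that of CCl4 4w in 50 rows, against 12.6% of the other rows within the limits, and the highest was that of CCl4 1w in 54 rows, against 26.1% of them. Without CCl4 1w B, the higher calls at 1 week fell from 32 to 21 and the lower calls from 13 to 6, and without CCl4 1w A the lower calls fell to 5. With 1 library left out, the calls at 4 weeks were between 20 and 28 higher and between 61 and 71 lower, and those at 8 weeks between 17 and 23 higher and between 51 and 57 lower. Without CCl4 1w A, 12 rows were called higher at 8 weeks than at 1 week. The 4-week libraries were spread out, since the 56 rows called lower at 8 weeks had median levels of 4.67, 4.93, 5.85 and 5.45 in CCl4 4w A to D.

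Line 4398, the row with the deepest drop in culture, was among the 3 largest called rises at 1 week of CCl4. It was at 55.2, 70.4, 54.9 and 52.8 CPM in vehicle and at 364, 387 and 382 CPM in CCl4 1w (log2 fold change 2.67, SE 0.14, FDR 3.8e-09). It stayed at 266, 278, 339 and 266 CPM in CCl4 4w and at 281, 283 and 261 CPM in CCl4 8w. In the diet series it ranged from 71.4 to 140 CPM in chow and from 54.0 to 204 CPM in WD 24w, so those groups overlapped.

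The other large rises at 1 and 8 weeks of CCl4 began from a few counts in vehicle. Line 18982 was at 0.654, 2.39, 0.844 and 1.39 CPM in vehicle, which were 3, 10, 4 and 4 counts, and at 26.0, 31.9 and 12.0 CPM in CCl4 1w (log2 fold change 4.13, SE 0.42, FDR 2.9e-06). In CCl4 8w it was at 72.4, 50.5 and 54.5 CPM (5.36, SE 0.41, FDR 3.7e-08). Its treated libraries were all above its vehicle libraries, and the exact size of the fold change depends on how such low counts are treated.

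Line 16866 was at 1.09, 2.39, 3.17 and 1.04 CPM in vehicle, at 23.5, 23.5 and 10.9 CPM in CCl4 1w (log2 fold change 3.24, SE 0.39, FDR 1.4e-05) and at 76.2, 45.3 and 52.7 CPM in CCl4 8w (4.71, SE 0.38, FDR 5.8e-08). Line 8813 had 2, 1, 3 and 2 counts in the 4 vehicle libraries and was at 31.8, 26.7 and 28.4 CPM in CCl4 8w (edgeR FDR 2.8e-08). Its pooled CPM was 60.9-fold that of vehicle, with an exact 95% counting interval of 30.6 to 142 that leaves out the spread between mice. Lines 18982, 16866 and 8813 also rose from 4days to 8days in culture.

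Of the rows that fell at 8 weeks of CCl4, line 21467 was at 38.4, 44.6, 43.7 and 36.8 CPM in vehicle and at 7.04, 6.04 and 9.04 CPM in CCl4 8w (log2 fold change -2.60, SE 0.23, FDR 2.1e-07). In CCl4 1w it was at 47.0, 39.9 and 45.6 CPM, which overlapped with the vehicle range. Line 15693 fell from 64.5, 71.3, 91.0 and 59.0 CPM to 16.8, 19.8 and 13.6 CPM (-2.25, SE 0.29, FDR 9.5e-06). Line 20407 fell from 16.8, 21.7, 16.5 and 15.6 CPM to 4.12, 3.02 and 5.02 CPM (-2.23, SE 0.38, FDR 0.00015). None of these rows had a treated library at 8 weeks that reached the vehicle range.

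The largest called falls at 1 week were in other rows. Line 20441 was at 36.6, 34.8, 27.6 and 26.7 CPM in vehicle and at 6.60, 6.22 and 7.49 CPM in CCl4 1w (log2 fold change -2.24, SE 0.29, FDR 3.4e-05), and at 15.5, 12.9 and 14.3 CPM in CCl4 8w. Line 10981 fell from 31.2, 29.1, 30.2 and 28.5 CPM to 9.50, 9.56 and 8.56 CPM (-1.71, SE 0.29, FDR 0.00037). Line 14674 fell from 19.4, 25.5, 21.9 and 33.0 CPM to 9.63, 7.29 and 9.63 CPM (-1.52, SE 0.32, FDR 0.0025). The 8-week level of line 20441 lay between those of vehicle and 1 week.

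**Figure D4:**
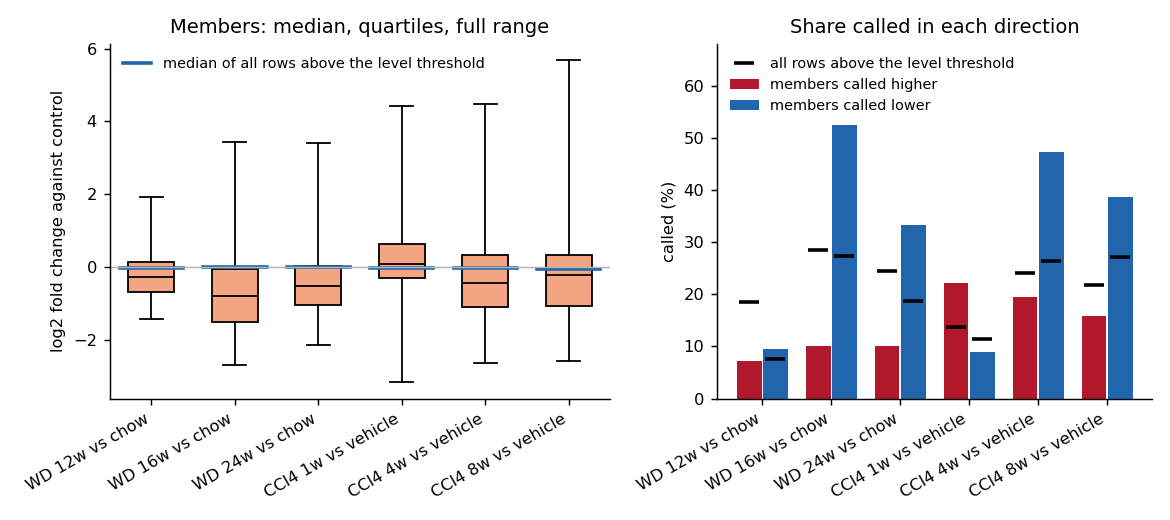
Left, log2 fold changes of the 150 rows in the 6 comparisons with control, with boxes for quartiles, whiskers for the full range and a blue line for the median of all rows above the level. Right, percent of the rows above the level called higher (red) or lower (blue), with a black dash for the same share of all rows; lower calls at 16 weeks of diet reach 52.5%, against 27.3%.

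Rows that were slow to return in culture could be set beside those that were fast. In WD 16w, where 27.3% of all rows above the level were called lower and 28.4% higher, 26 of the 40 rows with at least 90% recovery at 4days were called lower and 6 higher, with a median log2 fold change of -1.39. Of the 87 rows between 50% and 90%, 41 were called lower and 4 higher, with a median of -0.81. Of the 23 rows under 50%, 6 were called lower and 4 higher, with a median of -0.14. In CCl4 8w the 3 classes had 17 of 40, 32 of 87 and 7 of 23 rows called lower, and 6, 11 and 6 called higher, against 27.1% and 21.7% of all rows above the level. The last class was the lowest in level, with a median of 4.51 in chow, against 6.12 and 6.21 in the other classes. The part of level in this order was not tested.

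Line 18597, one of the slowest rows, was higher in the control mice than in culture. It was at 29.0, 15.4 and 20.8 CPM at 2hrs and at 278, 255, 353 and 315 CPM in chow. In WD 24w it was at 196, 191, 191 and 190 CPM (log2 fold change -0.66, SE 0.16, FDR 0.0039), and in CCl4 4w it was at 24.5, 27.5, 103 and 40.3 CPM. In CCl4 8w it was at 28.5, 96.6 and 84.4 CPM, against 152, 213, 207 and 218 CPM in vehicle (-1.66, SE 0.46, FDR 0.0067). It was thus called below its controls in both series, and 3 of its CCl4 libraries were within the range of the 2hrs libraries.

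Line 14065, late in its return, was at 1 to 8 counts in the chow libraries and at 10.0, 5.96, 5.28 and 3.82 CPM in vehicle. After 1 week of CCl4 it was at 36.3, 19.7 and 20.1 CPM (log2 fold change 1.97, SE 0.29, FDR 0.00011). Chow and vehicle are both control groups, so the libraries of this row lay apart between the controls of the 2 series. Its counts under diet were too few for a fold change.

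The effects of 24 weeks of diet and 8 weeks of CCl4 rest on separate controls and could be set side by side. Of the 46 rows called lower in WD 24w, 30 were also called lower in CCl4 8w and 2 were called higher. That is 65.2% of the 46, against 72.4% of all 2213 rows called lower in WD 24w, and it is 53.6% of the 56 rows called lower in CCl4 8w, against 50.2% of all rows so called. Of the 14 rows called higher in WD 24w, 5 were also called higher in CCl4 8w and none was called lower. That is 35.7% of the 14 and 21.7% of the 23 rows called higher in CCl4 8w, against 55.7% and 62.7% over all rows. Both effects could be fitted in 147 of the 150 rows, and their Spearman correlation was 0.621 across rows, against 0.737 across 12978 rows. Rows are not independent replicates, so these are descriptions.

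The difference of the 2 effects was tested as a contrast over the 8 mouse groups. The diet effect was above the CCl4 effect in 5 rows, against 5.81% of all rows above the level, and below it in 10 rows, against 3.20%, out of 139 rows above the level. With 1 library left out these counts were 2 to 6 and 6 to 15. The lowest count of rows above, 2, was reached without CCl4 8w A or C, without chow A, B or C and without vehicle A or D, and it was 3 without WD 24w A or C or chow D. The lowest count of rows below, 6, was reached without CCl4 8w C or vehicle A.

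Among these rows were 3 of the 5 deepest. For line 4398 the difference was -1.99 on the log2 scale (SE 0.62, FDR 0.039), and for line 8489 it was -1.74 (SE 0.49, FDR 0.021). Line 8489 was at 20.3, 13.4, 37.4 and 27.4 CPM in vehicle and at 152, 144 and 141 CPM in CCl4 8w, and at 30.4, 7.78, 27.6 and 31.9 CPM in chow and at 30.6, 33.4, 40.5 and 58.6 CPM in WD 24w. In both rows the CCl4 libraries stood clear of vehicle and the diet libraries overlapped with chow.

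Line 6547 differed through its fall under diet. It was at 322, 354, 194 and 229 CPM in chow and at 70.6, 126, 54.0 and 38.6 CPM in WD 24w (log2 fold change -1.93, SE 0.53, FDR 0.0092), whereas vehicle was at 217, 273, 323 and 179 CPM and CCl4 8w at 358, 233 and 317 CPM. The difference of its effects was -2.12 (SE 0.63, FDR 0.029). Its CCl4 8w and vehicle libraries overlapped.

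Among the called rows, the largest differences were in line 16866, at -4.67 (SE 0.73, FDR 0.00010), and in line 18982, at -4.39 (SE 0.78, FDR 0.00043). The effects of line 8813 lay further apart, but its difference was not called, where a call needed a mean log2CPM above 2. Its vehicle counts were at or below the floor, and it was at 0.185 to 5.03 CPM in chow and at 0.696 to 2.32 CPM in WD 24w. Line 1893, picked after its values were seen because it had the smallest FDR, differed by -3.06 (SE 0.40, FDR 2.0e-05). It was at 5.18, 8.11, 5.87 and 5.28 CPM in chow and at 3.25, 4.31, 3.17 and 2.65 CPM in WD 24w, and at 8.28, 7.16, 7.60 and 10.8 CPM in vehicle and at 38.6, 48.3 and 35.4 CPM in CCl4 8w. It was called lower under diet and higher under CCl4.

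**Figure D5:**
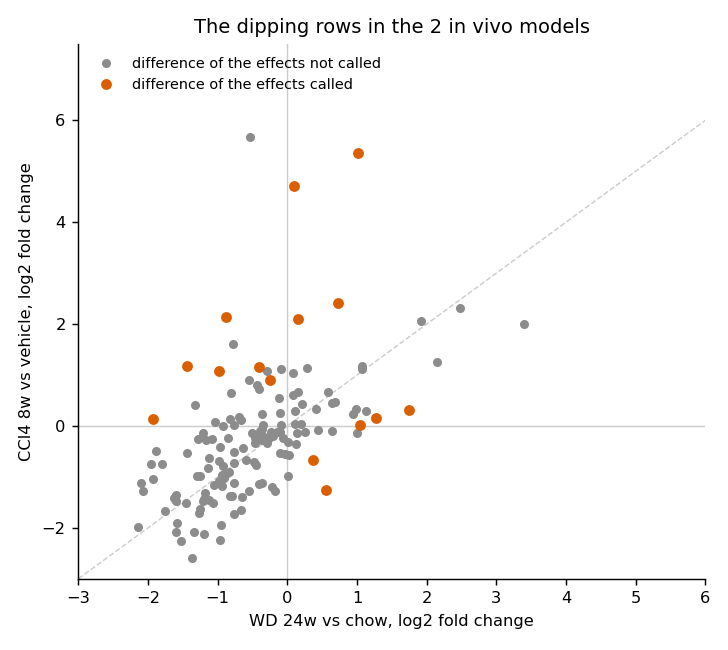
Log2 fold change of each row in WD 24w against chow (horizontal) and in CCl4 8w against vehicle (vertical), with a dashed line where both are equal and orange points for the 15 rows in which the difference of the effects was called. Most points lie in the lower left, and the 3 highest points, lines 8813, 18982 and 16866, lie at -0.54, 1.01 and 0.09 on the diet axis.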

How the data were processed

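The authors aligned the reads to mm10 with STAR and deposited raw exon counts per row, which HOMER had made without regard to strand, keeping no more than 3 reads per position, and which were not normalized. All value columns were used, and groups and letters came from the labels. Versions of STAR and HOMER were not given in the sources used here. The 150 rows and all lists were chosen with earlier results of these data known.

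Counts were tested on the whole tables with edgeR 4.0.16 (R 4.3.3) with TMM scaling, the filterByExpr filter and the quasi-likelihood test. FDR is the Benjamini-Hochberg adjusted p. Each fit held all groups of a series, or all 8 mouse groups for the difference of the effects. Called rows had an FDR no higher than 0.05 with mean log2CPM above 2. SE was the size of the log2 fold change over the root of F. P-values measure the spread between libraries. The scripts were tested on simulated data. Tables and figures were made in Python 3.11.15.

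Rows given in full were the 5 with the largest drop, the rows on each side of the limit, the 3 highest and 3 lowest in recovery at 4days and, for WD 24w, CCl4 8w and CCl4 1w against control and for 8days against 4days, the 3 largest called changes in each direction. Letters shared between groups were checked by the correlation of same-letter deviations. Only for CCl4 1w against vehicle did every pair exceed 0.1 (0.201 to 0.220), with no statement of a shared origin. Alternatives were library totals, DESeq2 1.42.0 and its size factors, no filter, no threshold on level, a 2-fold limit, the compared groups alone, the letter as a block, libraries left out, and other forms of the rule.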

Additional observations from a re-analysis of the deposited data

Results flagged for a closer look

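In 186 groups of 4 libraries (30 rows given in full and the median level, each in 6 groups), 11 had a library far from the other 3 by Dixon's limit, where chance gives about 1 in 20. High libraries were vehicle B in line 4398 (70.4 CPM, others 52.8 to 55.2), vehicle D in line 22447 (11.8 CPM, others 1.74 to 2.11), WD 24w D in line 21357 (191 CPM, others 74.5 to 82.1) and in line 14674 (25.9 CPM, others 11.2 to 11.6), and WD 24w A in line 18597 (196 CPM, others 190 to 191). The other high libraries were WD 24w B in line 703 (11.2 CPM, others 6.75 to 7.18), CCl4 4w A in line 14222 (135 CPM, others 72.5 to 77.3) and WD 12w A in line 8813 (2.15 CPM, others 1.65 to 1.70). Low libraries were WD 16w C in line 8089 (2.89 CPM, others 7.58 to 7.75), vehicle A in line 18597 (152 CPM, others 207 to 218) and chow A in line 12340 (3.89 CPM, others 7.46 to 8.17).

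The effects of 24 weeks of diet and 8 weeks of CCl4 differed by edgeR's test of the contrast in 5 rows with the diet effect above and 10 rows with it below. Among the rows given in full that were called in this contrast, the difference on the log2 scale was -1.99 in line 4398, -2.12 in line 6547, -1.74 in line 8489, -4.39 in line 18982 and -4.67 in line 16866.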

How the results depend on the processing

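Of 320 alternatives for counts of rows, 280 left the count within 1.5 times, and 40 did not. In 24 pairs of a row given in full and a comparison, all 312 alternatives kept direction and call. These did not hold the 2-fold limit, which line 15530 did not reach at 8days against 4days (log2 fold change -0.90). Of the 150 rows, 96 were chosen again with DESeq2 size factors, 94 with a minimum level of 5, 82 with ends within 0.25, 105 with TMM scaling and 123 to 130 with a letter left out. The 2hrs libraries had a log2 mean TMM factor of -0.26, against 0.06 to 0.08 on other days, and with TMM scaling the 150 rows had recovered 71.0% at 4days and 83% at 8days. At 2-fold or more, 16 rows were higher and 2 lower at 8days than 4days, 1 lower at WD 12w, 9 higher at WD 16w, 29 lower at WD 24w, 18 higher and 6 lower at CCl4 1w, 17 higher and 39 lower at CCl4 4w, 7 higher and 43 lower at 8 against 1 week, and 3 with the diet effect above. With the compared groups alone, lower calls were 19 at 8days, 37 at WD 12w and 28 at CCl4 1w. The rule with TMM scaling gave 22 higher and 43 lower at WD 24w, and DESeq2 size factors gave 2 rows with the diet effect above and 10 below. The cause of these changes was not tested, and the shares of all rows called under the alternatives are not given. With the letter as a replicate block, CCl4 1w had 30 higher and 11 lower, WD 24w had 53 lower, and no count moved by over 1.5 times. Scaling by library totals moved the median of all rows by 0.15 at CCl4 4w, 0.14 at 8w and 0.12 at 8 against 1 week. With 1 library left out, higher and lower calls were 58 to 62 and 7 to 9 at 8days, 9 to 12 and 10 to 13 at WD 12w, 10 to 15 and 61 to 74 at WD 16w, 9 to 14 and 26 to 57 at WD 24w, 21 to 31 and 5 to 13 at CCl4 1w, 20 to 28 and 61 to 71 at CCl4 4w, 17 to 23 and 51 to 57 at CCl4 8w, 12 to 19 and 56 to 62 at 8 against 1 week, and 2 to 6 and 6 to 15 for the diet effect above and below that of CCl4. Depth limits rows near the floor of 3 counts, above all on day 1.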
